A study of Mus musculus with 8 samples.

Results

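A set of 10 genes that mark the making and remaking of skeletal muscle were followed through 8 mouse tumours: the myogenic transcription factors Myod1, Myog, Myf5 and Myf6, the satellite cell factor Pax7, the developmental myosin heavy chains Myh3 and Myh8, and the acetylcholine receptor subunits Chrna1, Chrnd and Chrng. They were taken by symbol from the deposited table, and all 10 were found among its 55450 genes. The tumours grew in the flank of C57BL/6 mice from MOC1, a mouse oral squamous carcinoma line whose tissue of origin the labels give as tongue, and were taken after 32 days of treatment. All animals were given anti-PD-1 (antibody blockade of the T cell checkpoint PD-1), so no group lacks it. With it, 5 animals had an antisense oligonucleotide (ASO) against Smyd3, which encodes a lysine methyltransferase, and 3 had a control ASO. Of the 5 Smyd3 ASO tumours, 2 were labelled responders (numbered 1 and 3), 1 carried no response label (numbered 2) and 2 were labelled non-responders, which have no number and are called 1 and 2 in listed order. All tumours come from 1 cell line and each is taken as a separate animal. Age and sex are not given in the sources used here.

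In adult muscle, satellite cells carry Pax7 and lie quiet beside the fibres. After injury they switch on Myf5 and Myod1, then Myog as they fuse, and the new fibres pass through the embryonic myosin Myh3 and the perinatal myosin Myh8 before they settle on the adult fast myosins Myh1, Myh2 and Myh4. Mature fibres keep Myf6 as their main myogenic factor. The receptor at the nerve-muscle contact is built from Chrna1, Chrnb1 and Chrnd with the fetal subunit Chrng in young or denervated fibres and with the adult subunit Chrne in innervated ones. The values therefore address whether the muscle transcripts in these tumours have an adult or a regenerating make-up.

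The 8 libraries held 22103853.1 to 27258700.1 expected counts, and levels below are counts per 1000000 library counts (CPM) with TMM scaling, so that 1 CPM is 21.7 to 27.6 reads. Smyd3 itself was at 8.67 and 4.38 CPM in the responders, 4.58 in the tumour without a response label and 9.25 and 4.88 in the non-responders, against 10.7, 11.9 and 10.6 CPM in the controls, so each Smyd3 ASO tumour was below each control. The keratinocyte markers Krt5, Krt14, Krt6a, Trp63, Epcam and Cdh1, which stand for the labelled squamous carcinoma, summed to 18300 to 38700 CPM in Smyd3 ASO tumours and 27300 to 32900 CPM in controls. The 19 adult fast fibre genes used for comparison below took 0.0782% to 1.41% of the reads in Smyd3 ASO tumours and 0.00513% to 0.0124% in controls. In bulk tissue, fewer cells of a type and less RNA per cell cannot be told apart. Adipocyte markers were higher in the same tumours, with summed levels of 2.12 to 181 CPM in Smyd3 ASO tumours and 0.420 to 0.498 CPM in controls, and their part in the results was not tested.

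The promoters of 3 members that were higher together are shown with that of the adult subunit Chrne, because MyoD-family factors bind E-boxes (CANNTG). The windows reach from 250 bases before to 50 bases after the RefSeq start on GRCm38.p6 (mm10), and capitals mark each CANNTG, which reads the same pattern on both strands.
Chrna1 promoter, chr2:73580289-73580588, minus strand: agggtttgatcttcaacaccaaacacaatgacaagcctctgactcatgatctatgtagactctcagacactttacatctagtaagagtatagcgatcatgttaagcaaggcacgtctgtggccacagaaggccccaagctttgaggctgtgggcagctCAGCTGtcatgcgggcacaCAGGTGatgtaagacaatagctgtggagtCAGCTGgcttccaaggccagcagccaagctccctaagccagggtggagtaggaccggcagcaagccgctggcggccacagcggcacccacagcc
Chrng promoter, chr1:87205561-87205860, plus strand: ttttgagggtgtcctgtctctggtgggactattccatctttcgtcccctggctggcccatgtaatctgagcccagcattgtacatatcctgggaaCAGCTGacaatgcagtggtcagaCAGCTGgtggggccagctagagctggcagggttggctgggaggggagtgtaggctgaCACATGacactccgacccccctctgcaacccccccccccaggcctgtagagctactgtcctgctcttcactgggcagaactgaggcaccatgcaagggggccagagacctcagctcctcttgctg
Myog promoter, chr1:134289754-134290053, plus strand: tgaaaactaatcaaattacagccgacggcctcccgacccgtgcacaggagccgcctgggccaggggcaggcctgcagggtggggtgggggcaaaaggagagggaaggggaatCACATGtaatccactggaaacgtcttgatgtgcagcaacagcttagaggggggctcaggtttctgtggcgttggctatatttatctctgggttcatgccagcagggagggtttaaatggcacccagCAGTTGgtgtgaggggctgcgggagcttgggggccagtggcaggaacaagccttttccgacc
Chrne promoter, chr11:70619145-70619444, minus strand: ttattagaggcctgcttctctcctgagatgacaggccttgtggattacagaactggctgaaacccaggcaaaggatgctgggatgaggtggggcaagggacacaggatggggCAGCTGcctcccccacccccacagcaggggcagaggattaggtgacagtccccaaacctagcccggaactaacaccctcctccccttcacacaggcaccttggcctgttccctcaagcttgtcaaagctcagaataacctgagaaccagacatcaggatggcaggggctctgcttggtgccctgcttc
Chrna1 and Chrng each hold 3 E-boxes, of which 2 have the CAGCTG core, itself one form of CANNTG. Myog holds 2 E-boxes and Chrne 1, and that of Chrne is a CAGCTG. Among 32851 mouse promoter windows of this length, 72.3% hold at least 1 CANNTG, 39.6% at least 2 and 17.6% at least 3. For CAGCTG, 16.3% hold at least 1 and 1.90% at least 2. Of the 10 members, 7 have an entry in the RefSeq table; Myod1, Myf6 and Chrnd do not. The Pax7 and Myf5 windows hold 0 E-boxes, that of Myh3 holds 1 and that of Myh8 holds 2, with 0 CAGCTG in each. Of the other adult counterparts, Myh4 and Chrnb1 hold 3 E-boxes each, and Myh1 and Myh2 hold 0. A match is a description of letters and not a measured binding site.

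The genes lie in a few neighbourhoods of mm10, per GENCODE release M21. Myf6 (ENSMUSG00000035923.4, chr10:107492853-107494737, minus strand) sits beside Myf5 (ENSMUSG00000000435.1, chr10:107482908-107486134, minus strand). Chrnd (ENSMUSG00000026251.13, chr1:87190607-87200070) is followed by Chrng (ENSMUSG00000026253.14, chr1:87204657-87212694), both on the plus strand. Myh3 (ENSMUSG00000020908.14, chr11:67078300-67102291) and Myh8 (ENSMUSG00000055775.16, chr11:67277124-67308634) enclose the adult fast myosins on the plus strand of chromosome 11. Myog (ENSMUSG00000026459.5) is at chr1:134289989-134292548 and Myod1 (ENSMUSG00000009471.4) at chr7:46376474-46379099, both on the plus strand. Chrna1 (ENSMUSG00000027107.3) is at chr2:73563215-73580338 and Pax7 (ENSMUSG00000028736.13) at chr4:139737062-139833528, both on the minus strand. The myosin genes resemble each other closely: 21.4% of the distinct 50-base stretches of the longest Myh8 transcript and 4.81% of those of Myh3 also occur in transcripts of other genes, as do 26.7% for Myh1, 26.9% for Myh2 and 18.9% for Myh4, so the split of reads between these genes is uncertain. For the 4 myogenic factors, Pax7, Chrnd and Chrng this share was 0%, and for Chrna1 it was 3.02%.

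Smyd3 ASO tumours were compared with control ASO tumours to ask how muscle regulators and developmental isoforms differ between the arms. In all 8 members that passed the filter on low counts every Smyd3 ASO tumour lay above every control, where 5.45% of the 16911 genes tested did so. Below the filter, Pax7 had 1 read in both the lowest Smyd3 ASO tumour and the highest control, and Myf5 overlapped at 0. The myogenic factor of mature fibres, Myf6, was 4.94 ± 3.56 CPM in Smyd3 ASO tumours (SD, n = 5) and 0.0984 ± 0.0467 CPM in controls (SD, n = 3), and the other tested members differed less. By edgeR's quasi-likelihood test with Benjamini-Hochberg adjustment over all genes, 0 members and 0% of all genes passed an FDR of 0.05 in either direction. At an unadjusted p below 0.05 the same test counted 8 members, each higher, where 8.54% of all genes were higher at that level. DESeq2 called 6 members at an adjusted p of 0.05 (Myod1, Myog, Myf6, Myh3, Myh8 and Chrna1), where it called 3.95% of all genes higher, and limma voom called 0. Of the 10 members, 8 passed the filter on low counts and 2, Myf5 and Pax7, did not. Of these 8, Myod1, Myf6, Chrnd and Chrng passed it only through Smyd3 ASO tumours, so a difference in these 4 is partly built in.

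**Figure D1:**
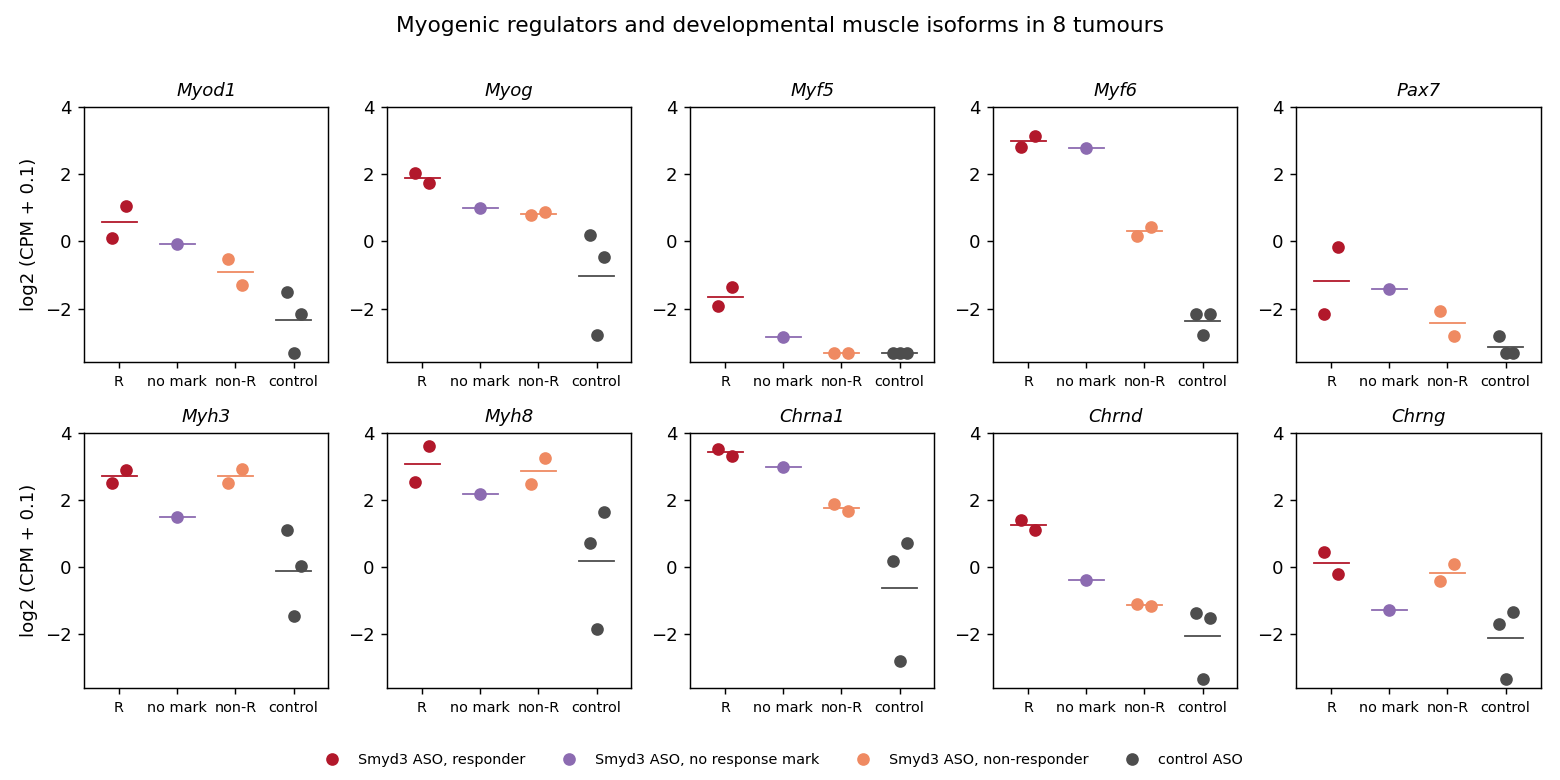
Level of each of the 10 genes as log2 (CPM + 0.1) in the 8 tumours, with 1 point per tumour and a bar at the group mean of the log values; groups are responders (2), the tumour without a response label (1), non-responders (2) and controls (3). Myf6 separates into high values in responders and the tumour without a label, middle values in non-responders and low values in controls, whereas Myh3, Myh8 and Chrng are about as high in non-responders as in responders.

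Among the myogenic factors, Myf6 showed the widest range. It was at 6.93 and 8.73 CPM in responders 1 and 3, 6.79 in the tumour without a label and 1.01 and 1.26 in the non-responders, against 0.125, 0.0446 and 0.126 CPM in the controls. These are 171, 241, 175, 22 and 29 reads against 3, 1 and 3 reads. The groups do not overlap, and the log2 fold change between arms was 5.57 (SE 1.01, edgeR FDR 0.0910). Myog, the factor of terminal differentiation, was at 4.01 and 3.22 CPM in responders, 1.90 in the tumour without a label and 1.61 and 1.74 in non-responders, against 1.04, 0.0446 and 0.631 CPM in controls. The lowest Smyd3 ASO tumour was thus not far above the highest control, and control 2, with 1 read, was far below the others (log2 fold change 2.11, SE 0.73, edgeR FDR 0.226). Myod1, which commits cells to the muscle lineage, was at 0.973 and 1.96 CPM in responders, 0.853 in the tumour without a label and 0.598 and 0.305 in non-responders, against 0.249, 0 and 0.126 CPM in controls. Its groups do not overlap, but the non-responder at 0.305 CPM holds 7 reads and the control at 0.249 CPM holds 6 (log2 fold change 2.84, SE 0.88, edgeR FDR 0.192). Myf5, the early factor of activated satellite cells, had 4 and 8 reads in responders and 1 in the tumour without a label, and 0 reads in both non-responders and in all 3 controls. Over the arm that is 13 reads against 0, at least 2.48-fold higher against a floor of 3 reads over the control group.

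Pax7, the marker of satellite cells, was near the limit of detection. It had 3 and 22 reads in responders 1 and 3, 7 in the tumour without a label and 3 and 1 in non-responders, against 1, 0 and 0 reads in controls. Responder 3 holds most of these reads, with 0.797 CPM. The ratio of 36 reads to 1 read is 20.6 after scaling, with a 95% counting interval of 3.47 to 837, which covers counting error only. Of 8 other satellite cell genes tested among 11 listed, 6 were above 0, where 51.8% of all genes were, and the median log2 fold change was 0.43, beside 0.01 over all genes tested, with 0 calls. Cdh15, the adhesion molecule M-cadherin of satellite cells and myoblasts, was at 1.90 ± 1.0 CPM in Smyd3 ASO tumours and 0.518 ± 0.335 CPM in controls (SD, n = 5 and 3; log2 fold change 1.86, edgeR FDR 0.236). Of the untested genes, named here after their values were seen, Chodl had 38 reads in Smyd3 ASO tumours and 1 in controls with overlap at 0, and Fgfr4 had 41 and 7 reads with every Smyd3 ASO tumour above every control. The syndecan Sdc4, which many cell types carry, was lower (log2 fold change -0.31, FDR 0.259), and the laminin receptor Itga7 (0.72, FDR 0.320) and the factor Msc (0.58, FDR 0.421) were above 0.

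Both developmental myosins were higher in Smyd3 ASO tumours. Myh3 was at 5.59 and 7.28 CPM in responders, 2.72 in the tumour without a label and 5.57 and 7.40 in non-responders, against 2.04, 0.267 and 0.925 CPM in controls. Myh8 was at 5.71 and 12 CPM in responders, 4.46 in the tumour without a label and 5.43 and 9.32 in non-responders, against 1.54, 0.178 and 3.03 CPM in controls. In both genes the tumour without a label was the lowest of its arm. Every Smyd3 ASO tumour lay above every control in both, where 5.45% of all genes tested did so. The log2 fold changes were 2.40 for Myh3 (SE 0.61, edgeR FDR 0.132) and 2.22 for Myh8 (SE 0.73, FDR 0.210). The adult fast myosins differed more on the same scale. Myh1 was at 199 ± 124 CPM in Smyd3 ASO tumours and 8.94 ± 4.24 CPM in controls (SD, n = 5 and 3; log2 fold change 4.47, SE 0.64, FDR 0.0656). Myh2 was at 33.9 ± 29.7 and 1.34 ± 1.23 CPM (log2 fold change 4.65, SE 1.06, FDR 0.106) and Myh4 at 881 ± 1150 and 4.06 ± 6.39 CPM (log2 fold change 7.75, SE 2.03, FDR 0.141), each with Smyd3 ASO tumours first. Whether these fold changes differ between genes was not tested. The likeness of the myosin genes, given above as 21.4% for Myh8, also limits its values. In responder 3, Myh8 had 330.6 expected counts beside 81970 reads of Myh1, Myh2 and Myh4. How many Myh8 counts come from reads of other myosins was not tested.

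The developmental myosins were a smaller part of the fast-type myosin reads where muscle reads were many. Myh3 and Myh8 together made 1.84% and 0.645% of the Myh1, Myh2, Myh3, Myh4 and Myh8 reads in responders 1 and 3, 0.481% in the tumour without a label and 5.06% and 5.14% in the non-responders, against 21%, 9.35% and 13.5% in the controls. The arms do not overlap, and within the Smyd3 ASO arm both non-responders lie above the other 3 tumours. Pooled, the share was 1.09% (95% exact binomial interval 1.04% to 1.15%) of 148317 reads in Smyd3 ASO tumours and 15.7% (13.7% to 17.9%) of 1210 reads in controls. These intervals cover counting error only and not the uncertain split of reads between like myosins. Control 2 rests on 107 reads (9.35%, 4.57% to 16.5%). So the developmental myosins were higher in CPM and at the same time a smaller share of the myosin reads in the Smyd3 ASO arm.

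**Figure D2:**
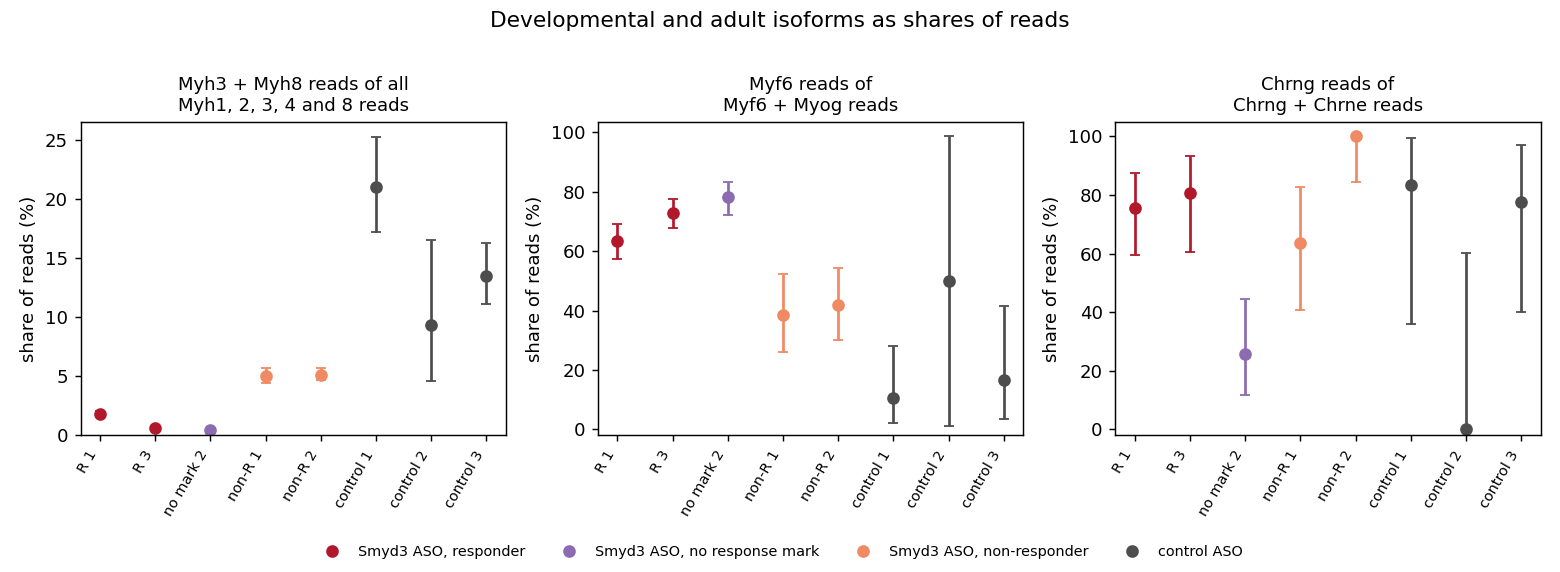
Share of reads (%) in each tumour, with exact 95% binomial intervals that cover counting error only. The panels give Myh3 and Myh8 among the Myh1, Myh2, Myh3, Myh4 and Myh8 reads, Myf6 among Myf6 and Myog reads, and Chrng among Chrng and Chrne reads. The left panel has its own scale. The Myh3 and Myh8 share is 0.481% to 5.14% in Smyd3 ASO tumours and 9.35% to 21% in controls, the Myf6 share is highest in responders and the tumour without a label, and the Chrng share does not order the groups.

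The balance of the myogenic factors differed in the same samples. Myf6 made 63.3% and 73.0% of the Myf6 and Myog reads in responders 1 and 3, 78.1% in the tumour without a label and 38.6% and 42.0% in the non-responders, against 10.7%, 50% and 16.7% in the controls. Control 2 has only 2 such reads, and its interval of 1.26% to 98.7% allows almost any share. Per kilobase of the longest coding transcript, Myf6 was the highest of the 4 factors in responders (6.20 ± 1.01 CPM per kb, against 2.42 ± 0.374 for Myog; SD, n = 2) and in the tumour without a label (5.37 against 1.27). In non-responders Myf6 and Myog were at 0.901 ± 0.140 and 1.12 ± 0.0615 CPM per kb, and in controls at 0.0779 ± 0.0370 and 0.382 ± 0.334 CPM per kb. In every group the order below these was Myod1 and then Myf5, and with 3 reads or fewer of Myf6 in each control the order there is not resolved.

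Set against the reads of the 19 adult fast fibre genes, all 8 tested members had lower pooled ratios in the Smyd3 ASO arm, Myf6 by the least. Per tumour the ratios of all 8 overlapped between arms, with control 2 inside or below the Smyd3 ASO range in each. For Myh3 control 2 was at 5.02 reads per 1000, against 6.94 and 6.33 in the non-responders. Myf6 had 0.629 to 2.67 reads per 1000 fast fibre reads in Smyd3 ASO tumours and 0.837 to 1.57 in controls, and 0.981 against 1.16 when each arm was pooled, the control value resting on 7 Myf6 reads. Pooled in the same way, Myog had 0.480 reads per 1000 in Smyd3 ASO tumours and 6.81 in controls, Myh3 had 1.08 and 12.8, and Chrna1 had 1.38 and 10.5. Controls 1 and 3 give the high values, with 13.1 and 5.16 for Myog, while control 2 gives 0.837 from 1 read. The reads behind these ratios are few in controls, where the 19 genes summed to 1913, 1195 and 2908 reads. Of those reads 1090 were Eno3 and 1063 Tnni2, the genes whose log2 fold changes between arms were 2.99 and 3.21, well below the median of the list.

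Of the receptor subunits, Chrna1, Chrnd and Chrng had every Smyd3 ASO tumour above every control, where 5.45% of all genes tested did so. There were 0 calls at FDR 0.05, and Chrnb1 and Chrne overlapped between arms. Chrnd and Chrng passed the filter on low counts only through Smyd3 ASO tumours, so their differences are partly built in. Chrna1, the subunit that binds acetylcholine, was at 11.4 and 9.74 CPM in responders, 7.72 in the tumour without a label and 3.54 and 3.09 in non-responders, against 1.04, 0.0446 and 1.56 CPM in controls (log2 fold change 3.0, SE 0.86, edgeR FDR 0.166). Chrnd, present in both receptor forms, was at 2.55 and 2.03 CPM in responders, 0.659 in the tumour without a label and 0.368 and 0.348 in non-responders, against 0.291, 0 and 0.252 CPM in controls (2.68, SE 1.03, FDR 0.268). Non-responders, with 8 reads each, were thus barely above controls 1 and 3, with 7 and 6 reads. Chrng, the fetal subunit, was at 1.26 and 0.760 CPM in responders, 0.310 in the tumour without a label and 0.644 and 0.958 in non-responders, against 0.208, 0 and 0.294 CPM in controls (2.18, SE 0.79, FDR 0.249). Its lowest value in the arm, again the tumour without a label, rests on 8 reads and is next to control 3 with 7.

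The adult subunit Chrne did not pass the filter on low counts. It had 10 and 5 reads in responders, 23 in the tumour without a label and 8 and 0 in non-responders, against 1, 4 and 2 reads in controls, so the arms overlap. Chrng made 75.6% and 80.8% of the Chrng and Chrne reads in responders, 25.8% in the tumour without a label and 63.6% and 100% in non-responders, against 83.3%, 0% and 77.8% in controls. Pooled, that is 67.6% (exact binomial interval 59.2% to 75.2%) of 142 reads in Smyd3 ASO tumours and 63.2% (38.4% to 83.7%) of 19 reads in controls. A difference in this share was not detectable at this depth. The tumour without a label is the one Smyd3 ASO tumour in which Chrne reads outnumber Chrng reads, and it also has the lowest Myh3, Myh8 and Chrng levels of its arm and the highest Myf6 share. The beta subunit Chrnb1 was at 7.23 ± 1.79 CPM in Smyd3 ASO tumours and 5.69 ± 1.37 CPM in controls (SD, n = 5 and 3; log2 fold change 0.35, FDR 0.582). Per kilobase it was the highest subunit in both arms, at 3.36 ± 0.829 CPM per kb in Smyd3 ASO tumours and 2.64 ± 0.636 in controls, where Chrna1 was at 1.62 ± 0.844 and 0.201 ± 0.175 CPM per kb.

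**Figure D3:**
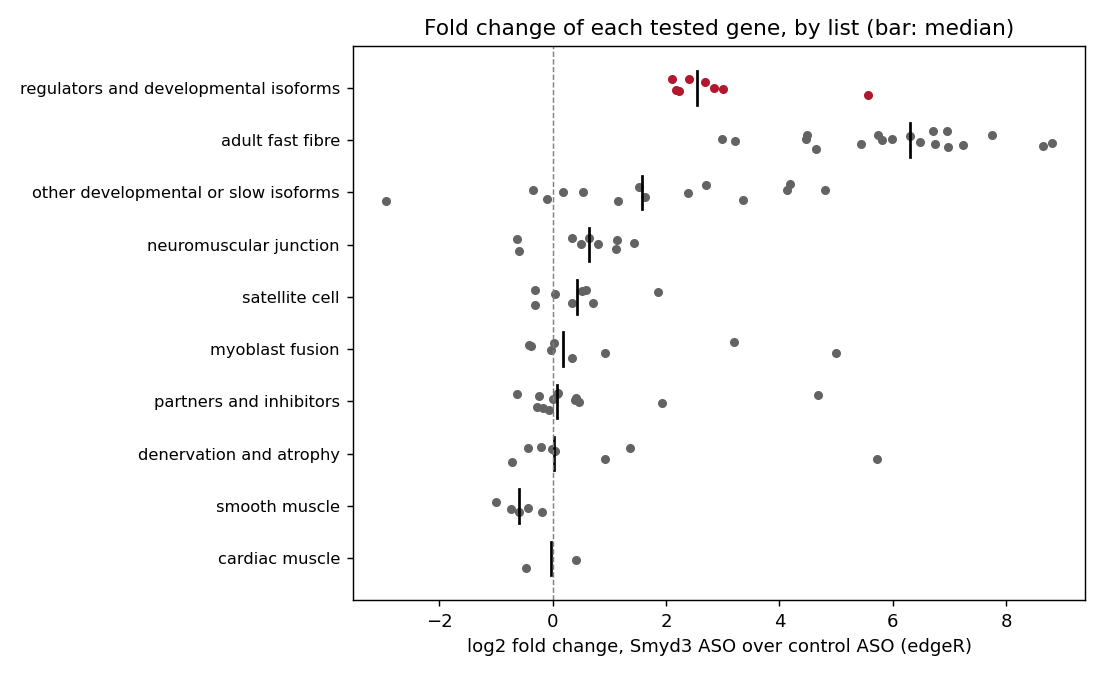
Log2 fold change, Smyd3 ASO over control ASO, of each tested gene (1 point per gene; vertical position within a row is arbitrary) in the 8 tested regulators and developmental isoforms and in 9 comparison lists, with a bar at each median; Mstn, with 0 reads in controls, is drawn at its lower bound. Of the lists drawn, adult fast fibre genes lie furthest to the right with a median of 6.31, beside 2.54 for the regulators and developmental isoforms. The junction, satellite cell, fusion and partner lists lie near 0. The adipocyte list, whose median of 7.53 is higher, and the Schwann cell and keratinocyte lists are not drawn.

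Other genes of the muscle programme were read through lists chosen by function, with earlier results of these data known. Of the 19 adult fast fibre genes, all 19 had every Smyd3 ASO tumour above every control, beside 5.45% of all genes tested, with a median log2 fold change of 6.31 and 0 calls at FDR 0.05. Among them the thick filament protein Mybpc2 was at 6.96, the calcium release channel Ryr1 at 4.49 and the muscle creatine kinase Ckm at 8.81 (FDR 0.0939 each). Ckm, Pvalb and Myoz1 of this list passed the filter on low counts only through Smyd3 ASO tumours, so a difference in them is partly built in. Of 14 tested developmental or slow isoforms, 6 did so, with a median of 1.58. The embryonic light chain Myl4 was at 6.83 ± 2.22 CPM in Smyd3 ASO tumours and 2.21 ± 1.07 CPM in controls (SD, n = 5 and 3; log2 fold change 1.63, FDR 0.135). The cardiac-type actin Actc1 of fetal fibres (4.18, FDR 0.138) and the stress-induced Ankrd1 (1.53, FDR 0.127) were also higher, while the slow-type myosin Myh7b was lower (-2.94, FDR 0.0986).

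The lists nearest to the members in function differed less. Of 9 tested neuromuscular junction genes, 7 were above 0 with a median of 0.64 and 0 calls; acetylcholinesterase Ache was at 1.14 (FDR 0.357) and the receptor-clustering Rapsn at 1.11 (FDR 0.358), whereas Agrn (-0.59, FDR 0.272) and Utrn (-0.62, FDR 0.218), which epithelial and stromal cells also make, were lower. In the fusion list the muscle caveolin Cav3 (5.0, FDR 0.0941) and the fusion protein Mymk (3.20, FDR 0.189) were higher, with a median of 0.18 over 8 genes. Mymk was at 0.946 ± 0.679 CPM in Smyd3 ASO tumours and 0.0971 ± 0.133 CPM in controls (SD, n = 5 and 3). The same list held Myof (-0.41, FDR 0.201) and Boc (0.93, FDR 0.366). Partners and inhibitors of the myogenic factors had a median of 0.08 over 13 genes, with the transcriptional cofactor Eya1 at 1.93 (FDR 0.219), Twist1, an inhibitor of MyoD, at -0.62 (FDR 0.290), and the E protein Tcf3 at -0.27 (FDR 0.349). Mstn, the growth inhibitor made by mature fibres, had 134 reads in Smyd3 ASO tumours and 0 in controls, at least 25.6-fold higher against a floor of 3 reads over the control group. Genes of denervation and atrophy had a median of 0.02 over 8 genes, with the ubiquitin ligase Trim63 at 5.72 (FDR 0.147), but Hdac4 at -0.43 (FDR 0.142) and Hdac9 at -0.71 (FDR 0.319). Cav3, Mymk, Mstn and Trim63 passed the filter on low counts only through Smyd3 ASO tumours, so their differences are partly built in.

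Of the smooth and cardiac muscle markers tested, 0 passed an FDR of 0.05 in either direction. Of 5 smooth muscle genes 0 were above 0, with a median of -0.60; Tagln was at -1.0 (FDR 0.0939), Smtn at -0.60 (FDR 0.288), Cnn1 at -0.74 (FDR 0.440) and Acta2 at -0.44 (FDR 0.471). Of 5 cardiac muscle genes, Myh6 had 2 reads in Smyd3 ASO tumours and 0 in controls and Nppa had 0 in both, and the 2 tested ones had a median of -0.02. The medians of the remaining lists were -0.36 over 5 Schwann cell genes, 7.53 over 5 adipocyte genes and -0.19 over 6 keratinocyte genes. The myelin gene Mbp was at 34.2 ± 4.80 CPM in Smyd3 ASO tumours and 49.5 ± 4.36 CPM in controls (log2 fold change -0.54, FDR 0.115). Sox10, with overlap between arms, was at 31.2 ± 32.7 CPM in Smyd3 ASO tumours and 1.47 ± 2.26 CPM in controls (SD, n = 5 and 3). Sox10 and the 5 adipocyte genes passed the filter on low counts only through Smyd3 ASO tumours, so their differences are partly built in.

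Inside the Smyd3 ASO arm the responders were set against the non-responders, a split by outcome and not by assignment. Myf6 and Chrnd were higher in responders. All 19 adult fast fibre genes had log2 fold changes above 0, with a median of 3.08 and 0 calls (lowest FDR 0.492). Both responders lay above both non-responders in 17 of them, where 20.3% of all genes tested did so. Myh4 and Myh2 overlapped, with Myh4 at 112 CPM in responder 1 against 116 and 139 CPM in the non-responders. The developmental myosins and the fetal receptor subunit were at about the same level in both groups. By edgeR's quasi-likelihood test 0 members and 0% of all genes passed an FDR of 0.05; at an unadjusted p below 0.05 the same test counted 2 members higher, where 4.74% of all genes were, and DESeq2 called 1 (Myf6), beside 0.940% of all genes higher, and limma voom 0. Both responders lay above both non-responders in 5 of the 8 tested members, Myod1, Myog, Myf6, Chrna1 and Chrnd, where 20.3% of all genes tested did so. Mean Myf6 was 7.83 ± 1.27 CPM for responders, against 1.14 ± 0.177 CPM for non-responders (SD, n = 2 each), a log2 fold change of 2.78 (95% interval 1.76 to 3.80, edgeR FDR 0.365). Chrnd was at 2.29 ± 0.372 and 0.358 ± 0.0142 CPM, responders first (2.66, interval 0.56 to 4.76, FDR 0.544). Chrnd reached the cutoff of the low-count filter in neither non-responder, so this difference is partly built in. For Myh3 the means were 6.44 ± 1.19 CPM for responders and 6.49 ± 1.29 CPM for non-responders, a log2 fold change of -0.01 whose interval of -1.70 to 1.67 allows a difference of either sign. The intervals were as wide for Myh8 (0.26, -1.94 to 2.46) and Chrng (0.33, -1.73 to 2.38), so equal levels are not shown. Myf5 had 12 reads in responders and 0 in non-responders, at least 3.42-fold higher against 3 reads over the group.

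**Figure D4:**
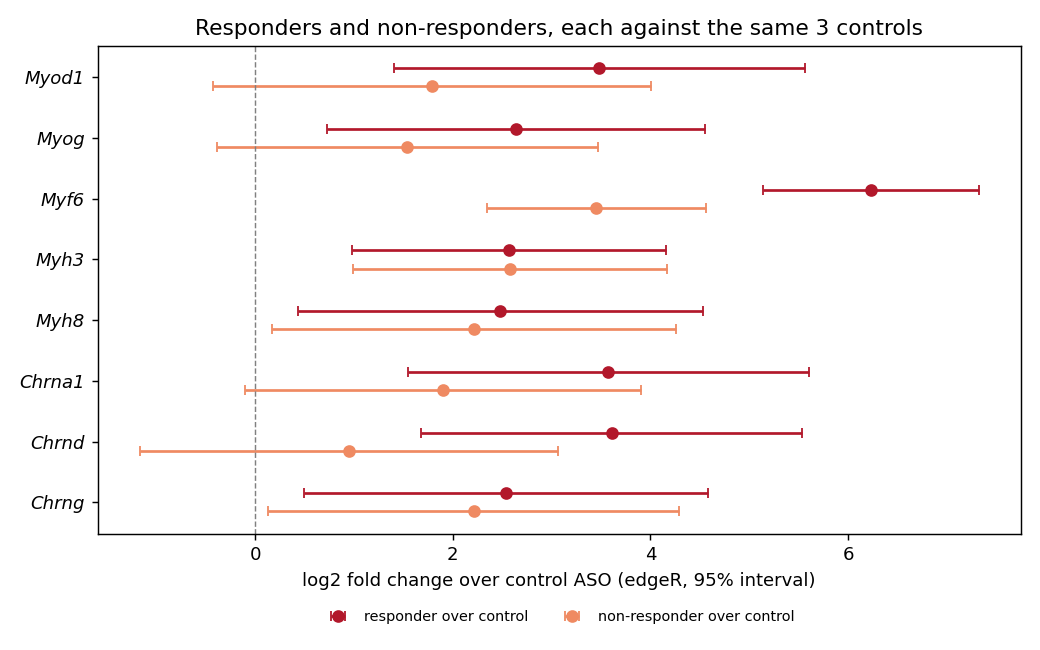
Log2 fold change over the same 3 control tumours of the 8 tested genes, for responders (upper point of each pair, n = 2) and non-responders (lower point, n = 2), with 95% intervals from the edgeR fit. Both groups are set over the same controls; Myf6 has the highest value in each, 6.23 (5.14 to 7.32) in responders and 3.45 (2.35 to 4.56) in non-responders, and the test between these groups is given in the text.

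Each response group was also set against the controls. In responders Myf6 rose with a log2 fold change of 6.23 (SE 0.46, edgeR FDR 0.0129), the single member called among the 8 tested, where 1.38% of all genes were called higher. All 8 tested members had both responders above all controls, where 18.8% of all genes tested did, as had Pax7 and Myf5 below the filter. The fold changes of the others were between 2.48 for Myh8 and 3.61 for Chrnd, with FDR values of 0.0888 to 0.224. The Myf6 call did not pass without control 1 (FDR 0.103) or without control 3 (FDR 0.0608). Myod1, Myf6, Chrnd and Chrng passed the filter on low counts only through Smyd3 ASO tumours, so their differences from controls are partly built in. The same limit holds for Ckm, Cav3, Trim63 and the adipocyte genes named below. At an unadjusted p below 0.05 all 8 tested members were higher, where 9.61% of all genes were. DESeq2 called 7 members, beside 4.46% of all genes higher, and limma voom 1, beside 0.633%. Of the comparison lists, 17 of the 19 adult fast fibre genes rose, with Ckm at 9.56 and Myh1 at 5.10 (0 of the 19 were called without control 1, 4 without control 2, 0 without control 3 and 9 without responder 3), as did Ankrd1 (2.11), Cav3 (5.77), Trim63 (6.74) and 3 adipocyte genes, and Myof fell (-0.66).

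In non-responders against controls edgeR called 0 members and 0% of all genes, with 4 members at an unadjusted p below 0.05, all higher, where 5.10% of all genes were, and DESeq2 called 2 (Myf6 and Myh3), beside 1.35% of all genes higher, and limma voom 0. All 8 tested members had both non-responders above all controls, where 12.2% of all genes tested did, and Myf5 had 0 reads in both groups. Here too, Myod1, Myf6, Chrnd and Chrng had passed the filter only through Smyd3 ASO tumours. All 19 adult fast fibre genes also had both non-responders above all controls, with a median log2 fold change of 3.86 and 0 calls. Myf6 had a log2 fold change of 3.45 (SE 0.47, FDR 0.247), Myh3 2.58 (SE 0.68, FDR 0.375) and Chrnd 0.95 (SE 0.90, FDR 0.783). These values and those of the responders share the same controls, so they are given side by side only.

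**Figure D5:**
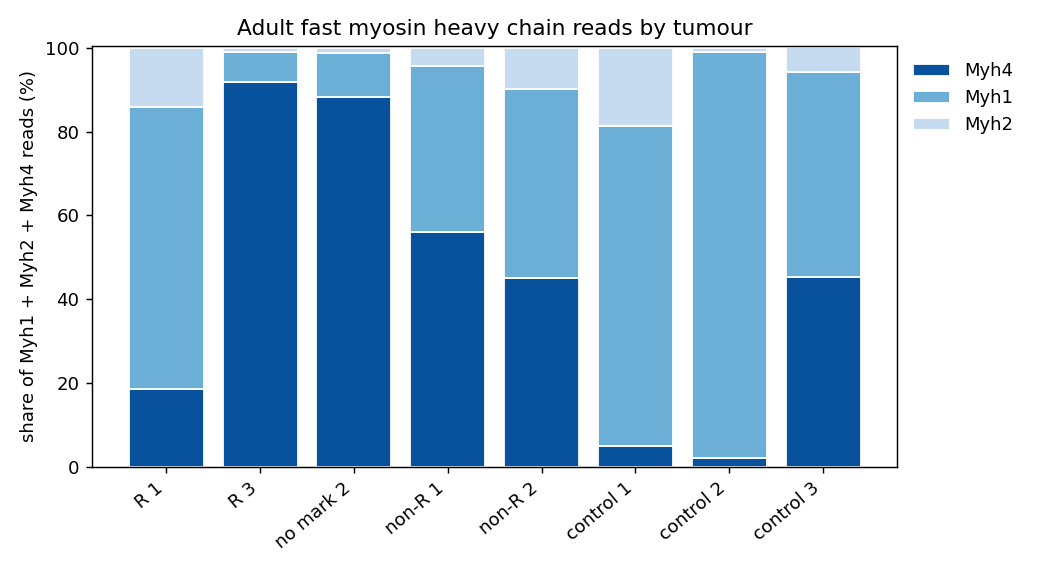
Reads of the adult fast myosins Myh4, Myh1 and Myh2 in each tumour as a share (%) of their sum (R, responder; non-R, non-responder; no mark 2, the tumour without a response label). Myh4 makes 91.9% in responder 3 and 88.2% in the tumour without a label, but 18.6% in responder 1, where Myh1 makes 67.3%.

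The adult myosins behind the shares above also differed between tumours of one group. Myh4, the myosin of the fastest fibres, made 18.6% and 91.9% of the Myh1, Myh2 and Myh4 reads in responders 1 and 3, 88.2% in the tumour without a label and 56.1% and 45.1% in non-responders, against 4.95%, 2.06% and 45.3% in controls. Responder 1 instead carried Myh1 (67.3%) and Myh2 (14.0%), so the responders differ in their main fast myosin. The close likeness of these genes, given above, limits how exactly their reads were divided.

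Across the 8 tumours the 8 tested members followed each other, with Pearson correlations of log2 CPM between 0.723 (Myf6 and Chrng) and 0.970 (Myog and Chrna1) over 28 pairs. The points share arm and muscle content, so this is a description. Among 13259 named genes whose mean log2 CPM was 0 or more, the 3 most like Myf6 were Hspb7 (0.992), Des (0.991) and Smpx (0.990), all genes of the muscle fibre. The 3 most like Chrna1 were Dtna (0.979), which encodes a dystrophin partner, Nprl2 (0.977) and the Z-disc gene Actn2 (0.976). The best for Myog were Srsf7 (0.977), Myl4 (0.976) and Ap1s3 (0.975), for Myod1 Nr2c2ap (0.983), Nkiras1 (0.979) and the thin filament gene Lmod3 (0.973), and for Chrng the slow troponin Tnnc1 (0.980), Nap1l3 (0.960) and Plppr4 (0.951). For Myh3 they were Ppp2r5a (0.977), Hint2 (0.970) and Tigd3 (0.966), for Myh8 Acadvl (0.979), Hadhb (0.977) and Kcnk5 (0.971), and for Chrnd Mrpl33 (0.982), Umad1 (0.975) and Chchd10 (0.965). With 8 points and so many genes searched, correlations of this size also reach genes with no known tie to muscle.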

How the data were processed

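Bulk polyA RNA of 8 tumours was sequenced from stranded mRNA libraries, per the labels' protocols. Per the submitters' processing notes, STAR 2.7.0f, RSEM 1.3.0, cutadapt 1.18, bcl2fastq 2.17 and the build mm10 were used; order, settings, gene annotation and use of strand in counting are not given in the sources used here. The authors deposited RSEM expected counts per gene, not scaled to library size, with 1 column per tumour, of which 2929 to 3179 per column are not whole (tolerance 1e-06). All 55450 identifiers occur in GENCODE M21, which gave positions and transcript lengths.

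Columns were assigned to tumours through the sample descriptions. Expected counts were rounded, and genes were kept with 2 or more libraries at 0.424 CPM (10 reads in the median library) and 15 reads in total, which left 16911. 1 CPM is 21.7 to 27.6 reads, which sets the precision of low values. Tests used edgeR 4.0.16 in R 4.3.3 (TMM, robust quasi-likelihood fit, two-sided, Benjamini-Hochberg over all genes, FDR 0.05). The arms were fitted with treatment as the only term, and the response groups in a model of 4 groups over all 8 libraries, with the lone tumour assumed to vary like the others. The SE is the log2 fold change over the root of the F statistic, and 95% intervals come from it. DESeq2 1.42.0, limma 3.58.1 voom, other size factors, no count filter, a replicate block and leaving out each library were alternatives. The steps were tested on simulated counts. Exact binomial intervals came from scipy 1.17.1.

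The 10 members and the 12 comparison lists were chosen with earlier results of these data known. Genes named from a list are the 4 or fewer with the smallest p between arms, of which 1 is not reported here; the members, Smyd3 and the adult counterparts are always named, and 3 genes of like pattern per tested member. Any 2 libraries differed in at least 16590 of the tested genes, so none was a repeat. The p-values set group differences against the estimated spread between these tumours. The labels number tumours but do not describe how animals were assigned, so the p-values alone do not credit a difference to treatment.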

Additional observations from a re-analysis of the deposited data

How the results depend on the processing

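The direction of each of the 8 tested members between arms and against controls was kept under every alternative run. Of 328 results of these members under an alternative, 296 kept direction and side of the threshold, 25 newly passed, 2 no longer passed and 5 changed sign. The sign changes all lie between responders and non-responders: Myh3 ranged from -0.21 to 0.20 with 1 library left out (0.17 without responder 1 and 0.20 without non-responder 2), Chrng from -0.07 (without responder 1) to 0.65, and Myh8 from -0.36 (without responder 3) to 0.71, with -0.07 without non-responder 1.

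Counts of calls at FDR 0.05 moved more. Between arms they were 0 genes and 0 members in edgeR, 1053 and 6 in DESeq2, 52 genes with no count filter, 286 and 1 in the 6 numbered libraries unpaired, and 0 to 258 genes and 0 to 1 members when 1 library was left out, the highest without non-responder 1, where the member was Myf6 (FDR 0.0253). Between responders and non-responders, where edgeR called 0, there were 225 genes and 1 member in DESeq2, 7 genes with no filter and 0 to 21 genes with 1 library left out. For responders against controls edgeR called 280 genes and 1 member, DESeq2 1153 and 7, limma voom 135 genes, and no filter gave 499 and 3. Leaving out 1 library gave 0 to 276 genes and 0 to 2 members, with 0 genes without control 1, 107 without control 2, 6 without control 3 and 33 without responder 3. For non-responders against controls DESeq2 called 339 and 2, no filter gave 32 and 1, and leaving out 1 library gave 0 genes and 0 members. The cause of these differences was not tested.

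With the replicate number as a block, the arms gave 245 genes and 1 member (Myf6, log2 fold change 6.19, FDR 0.0151), and responders against controls 810 and 4. Deviations of same-numbered tumours correlated at -0.034, 0 and 0.076, and 1 of the 3 Smyd3 ASO tumours correlated best with the control of its own number, so the numbers were not taken to pair the samples. A minimum of 10 reads for the isoform shares removes 0 Smyd3 ASO tumours, whose medians are 75.6% for Chrng and 1.84% for Myh3 and Myh8, and 0 controls reach 10 reads for Chrng and Chrne. Pax7 and Myf5 were below the count filter and entered only the fit with no filter, where 0 of the 10 members were called between arms and all 10 had an unadjusted p below 0.05.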

Other observations

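Some slow fibre genes, picked after their values were seen, were higher in responder 1 than in responder 3, while others were close, such as the slow troponin Tnni1 at 9.36 and 9.45 CPM. The slow myosin Myh7 was at 3.40 CPM in responder 1, 0.0362 CPM in responder 3, 0.0388 CPM in the tumour without a label and 0.138 and 0.653 CPM in non-responders, against 0.249, 0.0446 and 0.0841 CPM in controls. The slow light chain Myl3 was at 1.82 CPM in responder 1 and had 0 reads in responder 3. Sln, a small regulator of the calcium pump, was at 19.9 CPM in responder 1 and 2.64 CPM in responder 3, with controls at 0.0831, 0 and 1.09 CPM. Responder 1 was also the tumour with the least Myh4 among the adult fast myosins of its arm. These are values of single tumours with no test.

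The fusion protein Mymx, below the filter on low counts and named after its values were seen, had 24 reads over the Smyd3 ASO arm and 1 over the controls. The ratio was 13.7 with a 95% counting interval of 2.24 to 565, which covers counting error only. Each Smyd3 ASO tumour was above each control, where 5.45% of all genes tested showed this. These were 6, 6, 5, 3 and 4 reads against 0, 0 and 1. Mymk, the partner of Mymx, was lowest in the tumour without a label among the Smyd3 ASO tumours, at 0.272 CPM, as were Myh3, Myh8 and Chrng.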
